A study of Mus musculus with 18 samples.

Results

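The genes described here are tied to the transcriptional co-activator YAP and were chosen by name: Ctgf, Cyr61, Ankrd1, Amotl1, Amotl2, Lats2, Ajuba, Axl and Tead1. They are 9 of the 49845 gene names listed for every library. All 9 passed the filter of at least 1 TPM (a library's RNA shared out over its genes after correction for transcript length) in at least 3 libraries, which 16718 names passed.

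YAP and its relative TAZ shuttle between cytoplasm and nucleus, where they bind TEAD transcription factors and switch on genes for secreted matrix proteins, cytoskeletal proteins and growth signals. The Hippo kinases, with LATS1 and LATS2 as the last step, phosphorylate YAP and TAZ and hold them outside the nucleus. Cell stretch, shear and loss of cell contacts are known to release this hold, and several of the genes that YAP then raises encode its own inhibitors, such as angiomotin-like proteins and LATS2. In kidney tubule cells CTGF and CYR61, secreted proteins of the CCN family, are common readouts of this pathway.

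The RNA came from IMCD3 cells, a mouse epithelial line derived from collecting ducts of the inner medulla, with the strain background Tg(SV40E)bri/7 in all groups. The groups were wild type, a knockout of Ift140 and a knockout of Dync2h1, each without flow (static) or after 3 h of flow at a shear stress of 0.7 dyne/cm2, at passage 10 to 15, with 3 libraries in each of the 6 groups. Ift140 encodes a subunit of the intraflagellar transport complex that works in retrograde transport, and Dync2h1 the heavy chain of the dynein motor that drives it. Both serve the primary cilium, the sensory projection of tubule cells, and the study set ciliated against non-ciliated cells. The labels give neither the number of clones behind each knockout nor whether the libraries of a group came from separate cultures. The p-values therefore measure only the spread between these libraries, which may be technical, and a knockout cannot be told apart from the line that carries it. In bulk RNA, fewer cells with a transcript and less of it per cell cannot be told apart either.

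All values below are TPM after scaling between libraries (factors 0.88 to 1.207), and all changes are log2 differences of scaled TPM + 1 from limma with adjusted p-values over the 16718 genes. In static wild type Ift140 measured 16.5, 19.4 and 18.8 TPM, and 6.26, 6.39 and 7.31 TPM in its own static knockout. For Dync2h1 the static wild-type values were 40.4, 45.2 and 33.9 TPM, against 15.15, 9.63 and 15.5 TPM in its static knockout, so each targeted transcript was lower but present. The library labelled Ift140 knockout flow replicate 3 stood apart: it had the largest scaling factor, 1.207, and a median distance from its group mates of 0.315 on the log2 scale, where the other 17 libraries lay between 0.0973 and 0.22. Its Ift140 level of 14.25 TPM lay above the 7.615 and 8.66 TPM of its group mates and below the 16.39, 15.18 and 18.77 TPM of wild type under flow. For the genes under study and the gene lists, results that use it are given with and without it where a call or a count of calls changed. Epithelial markers summed to between 2779 and 2942 TPM in static wild type and between 3558 and 4886 TPM in the other groups, although the collecting duct genes Aqp2, Avpr2 and Scnn1a, 3 of 12 markers, were under 1 TPM in every library. Of the fibroblast markers 7 of 8 and of the endothelial markers 5 of 6 were under 1 TPM everywhere, with Lum at 0; the endothelial sum was 6.27 to 6.99 TPM in static wild type and 8.24 to 13.7 TPM under flow, and 2.23 to 4.35 TPM over both Dync2h1 groups. The fibroblast sum was 1.71 to 2.95 TPM in static wild type. It was 0.513 to 1.001 TPM in the static Ift140 knockout and 0.306 to 1.08 TPM in the static Dync2h1 knockout. Under flow wild type had 2.02 to 2.21 TPM, the Ift140 knockout 1.035 to 4.27 TPM and the Dync2h1 knockout 0.397 to 0.8525 TPM. The leukocyte list had 2 of 6 under 1 TPM everywhere, with Cd3e at 0, and summed to at most 20.4 TPM. The part of these marker levels in the results below was not tested.

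**Figure D1:**
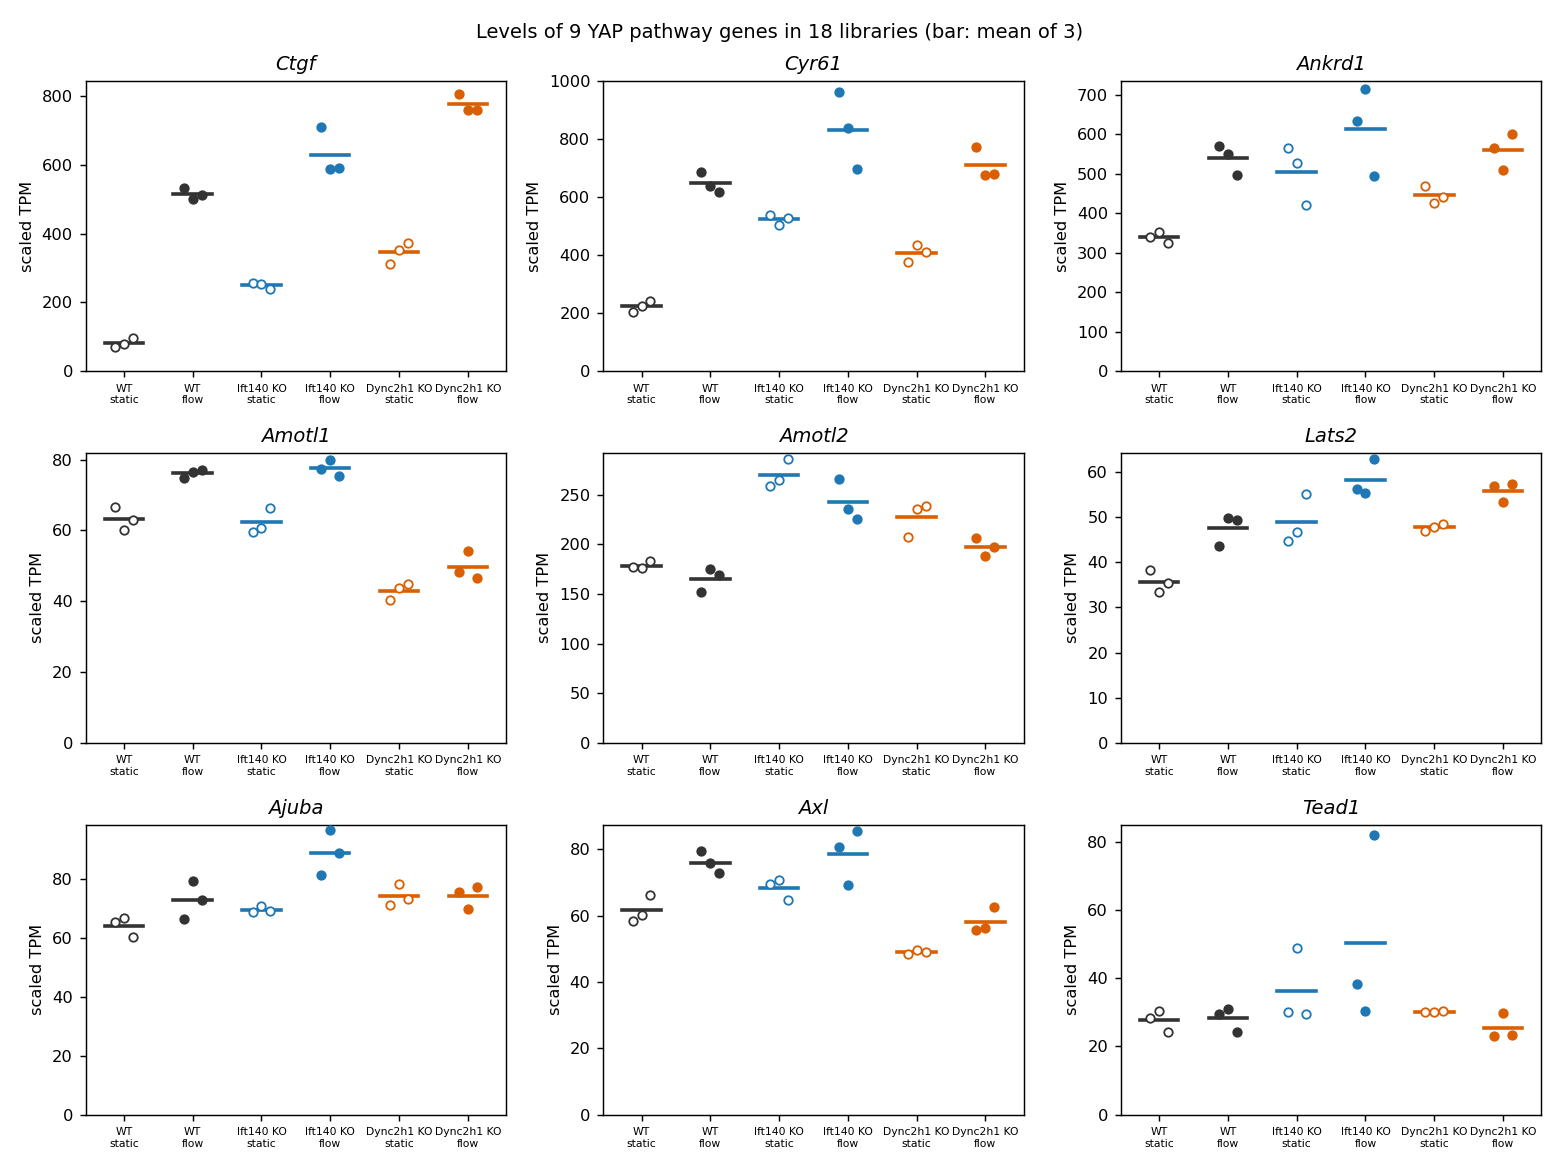
Scaled TPM of the 9 genes in all 18 libraries, by genotype and culture condition (open circles static, filled circles flow, bar the mean of 3). Ctgf climbs in steps from 81.1 TPM in static wild type to 776.5 TPM in the Dync2h1 knockout under flow with no overlap between any groups, Amotl1 and Axl are lowest in the Dync2h1 knockout, and the high Tead1 point at 82.1 TPM is Ift140 knockout flow replicate 3.

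Flow raised 6 of the 9 genes in wild-type cells (Ctgf, Cyr61, Ankrd1, Lats2, Axl and Amotl1), 4 in the Ift140 knockout (Ctgf, Cyr61, Amotl1 and Ajuba) and 2 in the Dync2h1 knockout (Ctgf and Cyr61), and lowered none by the test. Of all tested genes 9.91% rose and 9.46% fell with flow in wild type, 8.06% rose and 8.12% fell in the Ift140 knockout, and 10.8% rose and 7.38% fell in the Dync2h1 knockout. The median change of the 9 was 0.30, 0.31 and 0.22 in these comparisons, against -0.01, -0.01 and 0.03 over all tested genes. The static and flow libraries did not overlap for 7, 5 and 8 of the 9 genes, against 39.7%, 26% and 41.1% of all tested genes. Without Ift140 knockout flow replicate 3 the 4 genes of that line passed as well (Ctgf 1.37, Cyr61 0.78, Amotl1 0.33, Ajuba 0.35), joined by Ankrd1, and 5 instead of 2 passed in the Dync2h1 knockout, whose spread is estimated with all groups. Scaling mattered most for the Dync2h1 flow libraries: with unscaled TPM the median of all genes moved by -0.11 in their flow comparison, and the share of passing genes that rose went from 59.4% to 32%. There the changes of Amotl1, Axl and Lats2, 0.20, 0.24 and 0.22 when scaled, were 0.07, 0.11 and 0.09, and Ctgf and Cyr61 still rose, by 1.03 (adjusted p = 5.53e-05) and 0.66 (adjusted p = 0.000636).

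Without flow, the knockouts already differed from wild type. In the static Ift140 knockout 5 of the 9 were higher (Ctgf, Cyr61, Amotl2, Ankrd1 and Lats2) and none lower, where 7.76% of all tested genes rose and 8.68% fell. The same 5 were higher in the static Dync2h1 knockout, and Amotl1 and Axl were lower, where 13.1% of all tested genes rose and 13.1% fell. Both comparisons use the same static wild-type libraries, so their shared members are not separate evidence. The medians of the 9 were 0.44 and 0.34, against -0.02 and 0.00 over all genes. With unscaled TPM the share of passing genes that were higher went from 47.2% to 58.6% in the Ift140 comparison. The knockout and wild-type libraries did not overlap for 6 and 8 of the 9 genes, against 38.3% and 47.6% of all tested genes.

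**Figure D2:**
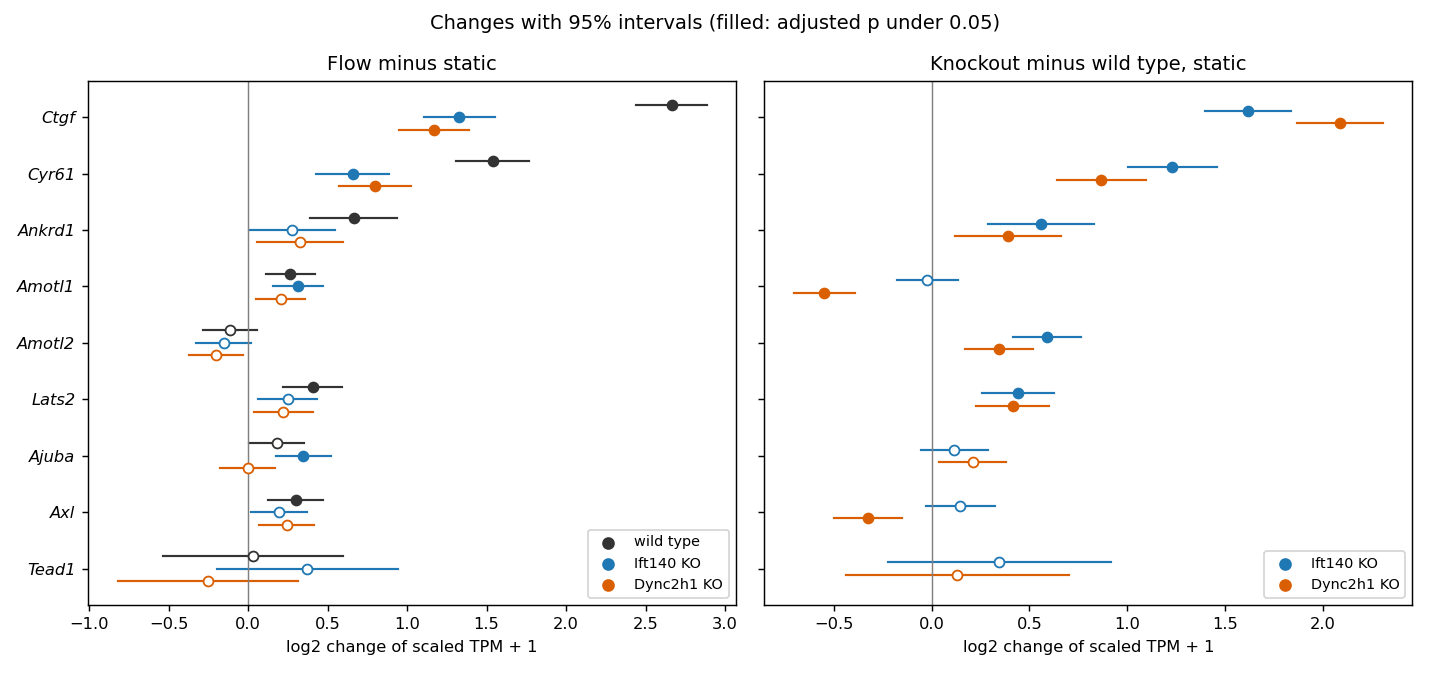
Log2 change of each gene with its 95% interval, for flow against static in each genotype (left) and for each knockout against wild type in static culture (right); filled points passed at adjusted p under 0.05. Within each comparison Ctgf and Cyr61 lie to the right of the other genes. The wild-type flow change of Ctgf, 2.66, exceeds those of both knockouts, and the filled points below 0 are Amotl1 and Axl in the Dync2h1 knockout.

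The TEAD recognition word GGAATG lay close to the start of 5 of the genes. RefSeq (GRCm38.p6) gives 8 promoter windows for 7 of the 9 genes, and the 250 bases before each start were searched on both strands. GGAATG was present in the windows of Cyr61, Ankrd1, Amotl2, Ajuba and Axl, and not in those of Amotl1 or Lats2. Ctgf and Tead1 were not searched. Of all 32841 windows of this length 12.6% hold the word, and 1.02% hold it at least 2 times, as Ankrd1 and Ajuba do. The word TGANTCA, bound by AP-1 (6.75% of all windows), and the CArG box, bound by SRF (1.47%), were in none of the 7 genes' windows. A match is a description of these letters and not a shown binding site, and bases farther away were not searched. The windows of Cyr61, Ajuba and Axl are shown because they do not overlap the annotated model of their own gene. Overlap with other genes was not checked. These windows belong to a secreted ligand, a junction protein and a receptor. They run 5′ to 3′ on the strand of the gene, with GGAATG or its reverse complement CATTCC in capitals.
Cyr61, chr3:145649986-145650235, minus strand: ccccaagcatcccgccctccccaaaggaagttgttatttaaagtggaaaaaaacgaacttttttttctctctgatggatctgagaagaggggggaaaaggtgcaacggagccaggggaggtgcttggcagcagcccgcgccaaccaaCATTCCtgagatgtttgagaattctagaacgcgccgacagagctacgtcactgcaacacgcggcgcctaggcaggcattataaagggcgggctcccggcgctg
Ajuba, chr14:54577662-54577911, minus strand: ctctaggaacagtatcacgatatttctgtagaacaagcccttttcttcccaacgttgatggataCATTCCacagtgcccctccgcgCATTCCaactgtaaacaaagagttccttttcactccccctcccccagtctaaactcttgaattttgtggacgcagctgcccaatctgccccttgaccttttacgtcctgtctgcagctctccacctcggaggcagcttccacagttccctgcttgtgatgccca
Axl, chr7:25788734-25788983, minus strand: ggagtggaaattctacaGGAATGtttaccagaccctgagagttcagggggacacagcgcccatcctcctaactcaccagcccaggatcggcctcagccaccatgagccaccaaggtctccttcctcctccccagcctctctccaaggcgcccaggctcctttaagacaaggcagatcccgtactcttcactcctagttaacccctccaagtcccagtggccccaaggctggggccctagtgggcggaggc

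For Ankrd1 and Amotl2 the windows overlap the annotated model of the gene itself, so only the words with 10 bases on each side are shown. In Ankrd1 they end 205 and 118 bases before the start, in Amotl2 60 bases, in Cyr61 98 bases, in Ajuba 181 and 159 bases and in Axl 228 bases.
Ankrd1, first: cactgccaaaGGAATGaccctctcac
Ankrd1, second: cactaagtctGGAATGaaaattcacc
Amotl2: gaaactctcaCATTCCtggcatagca

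Ctgf (now Ccn2; GRCm38, chromosome 10, 24595442 to 24598683, plus strand) encodes connective tissue growth factor, a secreted matrix-associated protein. In wild type it stood at 69.1, 79.5 and 94.8 TPM in static culture and at 532, 502.5 and 511.6 TPM under flow. In the Ift140 knockout the static libraries held 255, 252 and 240.2 TPM and the flow libraries 709.8, 588 and 591 TPM. In the Dync2h1 knockout they held 313, 353 and 372 TPM static and 808, 761 and 761 TPM under flow. The groups thus stood in the order wild-type static, Ift140 static, Dync2h1 static, wild-type flow, Ift140 flow, Dync2h1 flow, and none of the 15 pairs of groups overlapped.

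Ctgf rose with flow by 2.66 (SE 0.10) in wild type, with adjusted p = 8.905e-11. The rise was 1.33 (SE 0.10, adjusted p = 4.67e-07) in the Ift140 knockout and 1.17 (SE 0.10, adjusted p = 1.43e-06) in the Dync2h1 knockout. As ratios of group means these were 6.35, 2.53 and 2.25, all 3 ratios from groups that did not overlap. Before flow the transcript was already 1.62 (SE 0.10, adjusted p = 4.745e-08) above wild type in the Ift140 knockout and 2.09 (SE 0.10, adjusted p = 8.25e-10) above it in the Dync2h1 knockout. Under flow it was 0.59 (SE 0.10, adjusted p = 0.000526) higher in the Dync2h1 knockout, while the Ift140 knockout differed from wild type by 0.28 (95% interval 0.06 to 0.50), which did not pass at adjusted p = 0.0836 and passed without a logarithm (114 TPM, adjusted p = 0.00951). No single library left out, and no setting on the log2 scale, removed a call of Ctgf.

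Cyr61 (now Ccn1; GRCm38, chromosome 3, 145646976 to 145649981, minus strand) encodes another secreted CCN protein that binds integrins. In wild type it stood at 204, 223 and 242 TPM static and at 688, 639 and 619 TPM under flow. The Ift140 knockout held 539.6, 503 and 529 TPM static and 963.5, 840.1 and 696 TPM under flow. The Dync2h1 knockout held 376, 435.5 and 412 TPM static and 775, 677 and 679 TPM under flow. Here the Ift140 line, not the Dync2h1 line, had the higher static level, and the 3 flow groups stood closer together: the wild-type flow libraries overlapped those of the Dync2h1 knockout, which overlapped those of the Ift140 knockout.

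With flow Cyr61 rose by 1.54 (SE 0.11, adjusted p = 8.74e-08) in wild type, by 0.66 (SE 0.11, adjusted p = 0.0005975) in the Ift140 knockout and by 0.80 (SE 0.11, adjusted p = 8.55e-05) in the Dync2h1 knockout. In static culture it was 1.23 (SE 0.11, adjusted p = 1.59e-06) higher in the Ift140 knockout and 0.87 (SE 0.11, adjusted p = 2.27e-05) higher in the Dync2h1 knockout than in wild type. Under flow the difference from wild type was 0.35 (SE 0.11, adjusted p = 0.0407) for the Ift140 knockout and 0.13 (95% interval -0.10 to 0.36, adjusted p = 0.406) for the Dync2h1 knockout. The Ift140 difference under flow lost its call without any 1 of 11 libraries (static wild type 2, all wild-type flow, static Ift140 knockout 1 and 2, Ift140 knockout flow 1 and 2, static Dync2h1 knockout 3, Dync2h1 knockout flow 2 and 3), at values from 0.24 to 0.39 and adjusted p from 0.0501 to 0.153. It was 0.47 (adjusted p = 0.00328) without Ift140 knockout flow replicate 3 and did not pass without the filter (adjusted p = 0.07995) or when wild-type and Ift140 flow libraries alone were fitted (adjusted p = 0.271). The Ift140 flow response likewise lost its call in the fit of 2 groups (adjusted p = 0.0745).

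The difference between the flow responses was tested directly. On the log2 scale the Ctgf response was smaller than in wild type in the Ift140 knockout (difference -1.33, SE 0.15, adjusted p = 0.00057) and in the Dync2h1 knockout (difference -1.496, SE 0.15, adjusted p = 7.44e-05). For Cyr61 the differences were -0.88 (SE 0.15, adjusted p = 0.0298) and -0.74 (SE 0.15, adjusted p = 0.0497). These 2 of the 9 genes passed in each knockout, where 0.197% and 0.383% of all tested genes passed in either direction (0.0598% higher and 0.138% lower, and 0.144% higher and 0.239% lower); both differences use the same wild-type libraries. The other 7 genes did not pass in either knockout; Ankrd1 came nearest, at -0.39 (95% interval -0.77 to -0.00, adjusted p = 0.66) and -0.34 (95% interval -0.72 to 0.05, adjusted p = 0.631).

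The size of the flow response of Ctgf depended on the scale on which it was read. In TPM, wild-type cells gained 434 TPM (SE 11.4) with flow, the Ift140 knockout 380.5 TPM (SE 40.4) and the Dync2h1 knockout 430.5 TPM (SE 23.4). Fitted without a logarithm, the differences from the wild-type gain were -53.7 TPM (SE 36.5, adjusted p = 0.768) and -3.64 TPM (SE 36.5, adjusted p = 0.987). Cyr61 gained 425.5 TPM (SE 23.2) in wild type, 309.5 TPM (SE 78) in the Ift140 knockout and 302.5 TPM (SE 36.65) in the Dync2h1 knockout, with differences of -116 TPM (adjusted p = 0.705) and -123 TPM (adjusted p = 0.541). The ratios of flow to static thus differed between wild type and knockouts, and the differences between the gains in TPM did not pass. Static levels in the knockouts were 3.07-fold and 4.25-fold (Ctgf) and 2.35-fold and 1.83-fold (Cyr61) those of wild type in the log2 fit. The fit without a logarithm was chosen after the data had been seen.

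**Figure D3:**
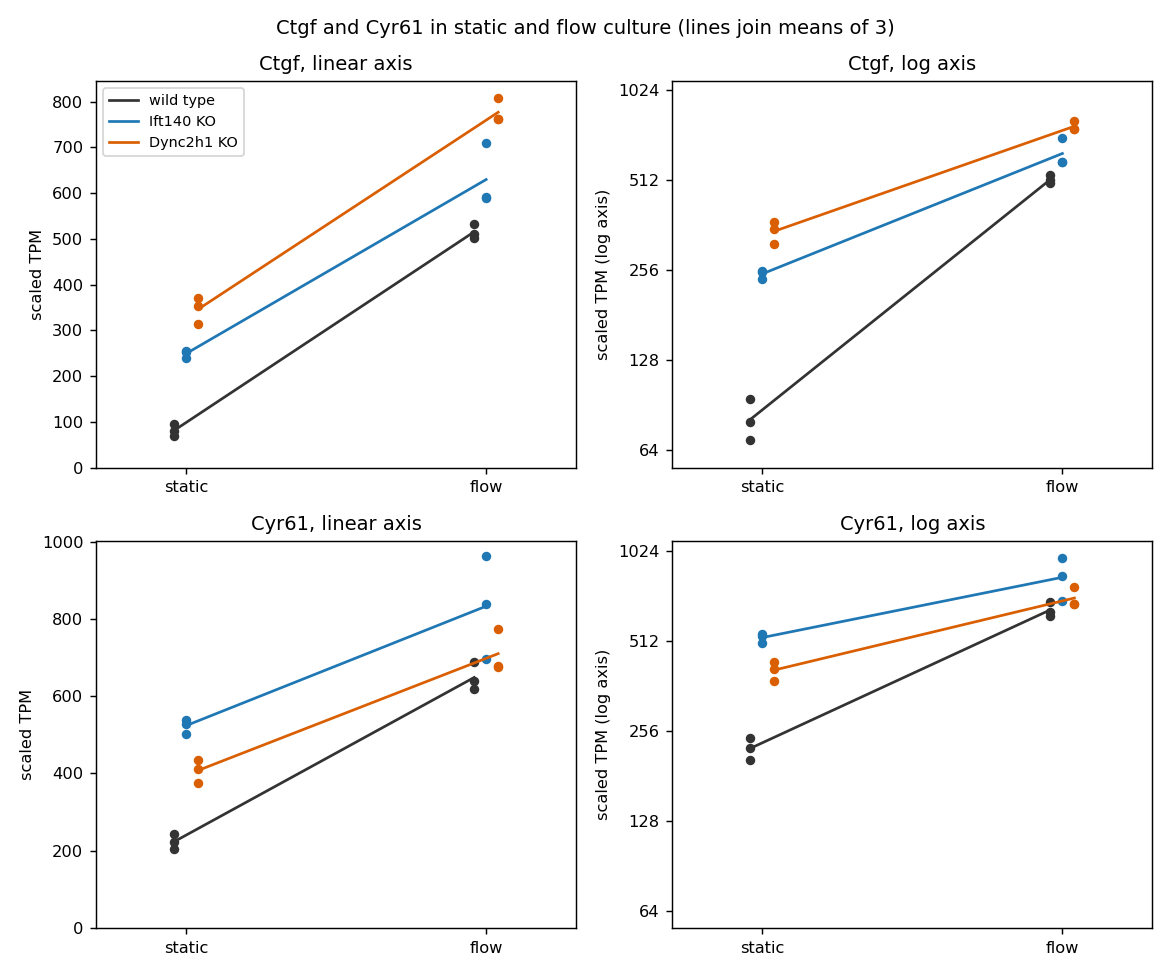
Ctgf (top) and Cyr61 (bottom) in static and flow culture on a linear axis (left) and a log axis (right), points the 18 libraries and lines joining the means of 3. On the linear axis the 3 Ctgf lines run nearly parallel, with gains of 434, 380.5 and 430.5 TPM, and on the log axis the wild-type line is the steepest, with ratios of 6.35, 2.53 and 2.25.

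The Cyr61 differences were close to the threshold. Without any 1 of 9 libraries (static wild type 1 and 2, all wild-type flow, all static Ift140 knockout and static Dync2h1 knockout 3) the Ift140 difference lost its call, at values from -0.91 to -0.82 and adjusted p from 0.0517 to 0.1. The Dync2h1 difference lost its call without any 1 of 16 libraries, all but Ift140 knockout flow 1 and 3, at values from -0.80 to -0.68 and adjusted p from 0.0531 to 0.158. It also did not pass without the filter (adjusted p = 0.0825) or with a pseudocount of 0.1 (adjusted p = 0.0517), and the Ift140 difference did not pass when the Dync2h1 libraries were kept out of the fit (adjusted p = 0.189). Without Ift140 knockout flow replicate 3 the Ift140 differences were -1.29 (adjusted p = 0.0016) for Ctgf and -0.76 (adjusted p = 0.0196) for Cyr61. The Dync2h1 difference of Cyr61 was then -0.74 (adjusted p = 0.00646). With unscaled TPM the Cyr61 differences were -0.89 (adjusted p = 0.0396) in the Ift140 knockout and -0.88 (adjusted p = 0.0139) in the Dync2h1 knockout.

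Ankrd1 (GRCm38, chromosome 19, 36111961 to 36120099, minus strand) encodes an ankyrin repeat protein of muscle and stressed cells and is a standard YAP target. It measured 341, 353 and 325.5 TPM in wild type without flow and 571, 550.4 and 496 TPM under flow, a rise of 0.66 (SE 0.13) with adjusted p = 0.00164. In the Ift140 knockout the libraries held 566, 528 and 420.5 TPM static and 633, 715.5 and 493 TPM under flow, and they overlapped. In the Dync2h1 knockout they held 468, 426 and 442 TPM static and 565, 510.5 and 602 TPM under flow, without overlap. All 15 other libraries lay above the static wild-type libraries. The static difference from wild type passed for the Ift140 knockout (0.56, SE 0.13, adjusted p = 0.00679) and for the Dync2h1 knockout (0.39, SE 0.13, adjusted p = 0.0333).

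The flow change of Ankrd1 in the knockouts did not pass, at 0.28 (95% interval 0.01 to 0.55, adjusted p = 0.164) in the Ift140 line and 0.33 (95% interval 0.05 to 0.60, adjusted p = 0.0933) in the Dync2h1 line. Without Ift140 knockout flow replicate 3 both passed, at 0.43 (adjusted p = 0.017) and 0.33 (adjusted p = 0.0281). The Ift140 change also passed with unscaled TPM (0.27, adjusted p = 0.0471), and the Dync2h1 change in a fit of its own 2 groups (adjusted p = 0.0276). Its static difference in the Dync2h1 knockout lost its call without any 1 of the 6 libraries compared (adjusted p from 0.0571 to 0.104), without the filter (adjusted p = 0.0724) and without a logarithm (adjusted p = 0.115).

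Axl (GRCm38, chromosome 7, 25757273 to 25788705, minus strand) encodes a receptor tyrosine kinase for the ligand GAS6 and is also a known YAP target. In wild type it stood at 58.4, 60.3 and 66.3 TPM static and at 79.5, 75.8 and 72.8 TPM under flow, a rise of 0.30 (SE 0.08, adjusted p = 0.017) between groups that did not overlap. Ift140 knockout libraries held 69.4, 70.7 and 64.9 TPM static and 80.8, 69.2 and 85.6 TPM under flow, which overlapped. Dync2h1 knockout libraries held 48.5, 49.5 and 49 TPM static and 55.8, 56.4 and 62.5 TPM under flow. Its static libraries lay below every other library of the study.

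Axl was lower in the Dync2h1 knockout than in wild type by -0.32 (SE 0.08, adjusted p = 0.00789) in static culture and -0.38 (SE 0.08, adjusted p = 0.00249) under flow, opposite in direction to Ctgf. Its flow change in that knockout, 0.24 (SE 0.08), lay at adjusted p = 0.0511, and in the Ift140 knockout, 0.19 (SE 0.08), at adjusted p = 0.129. The first passed without Ift140 knockout flow replicate 2 (adjusted p = 0.0232) or 3 (adjusted p = 0.0230) or in the fit of the 2 groups (adjusted p = 0.0346), the second without Ift140 knockout flow replicate 2 (0.28, adjusted p = 0.0224). The wild-type rise lost its call with unscaled TPM (adjusted p = 0.123) and without static wild type 1 or 2 or wild-type flow 1 (adjusted p from 0.0591 to 0.0776). With unscaled TPM the static Dync2h1 difference did not pass either (-0.34, adjusted p = 0.0625).

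Amotl1 and Amotl2 encode angiomotin-like proteins, which bind YAP at cell junctions and actin and keep it out of the nucleus. Amotl2 (GRCm38, chromosome 9, 102716672 to 102733418, plus strand) measured 177, 176 and 183 TPM in wild type without flow and 152, 175 and 169 TPM under flow. The Ift140 knockout held 259, 264 and 285.5 TPM static and 266, 236 and 226 TPM under flow, and the Dync2h1 knockout 207, 236 and 239 TPM static and 207, 188 and 197 TPM under flow. Every knockout library lay above every wild-type library.

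Amotl2 passed as higher than wild type in both knockouts and both conditions, as none of the other 8 did: by 0.59 (SE 0.08, adjusted p = 0.0001345) and 0.55 (SE 0.08, adjusted p = 3e-04) in the Ift140 knockout, and by 0.34 (SE 0.08, adjusted p = 0.00503) and 0.26 (SE 0.08, adjusted p = 0.02645) in the Dync2h1 knockout. Its flow changes did not pass and were below 0: -0.11 (95% interval -0.29 to 0.06) in wild type, -0.15 (95% interval -0.33 to 0.02) in the Ift140 knockout and -0.20 (95% interval -0.37 to -0.03) in the Dync2h1 knockout, where it passed with unscaled TPM (-0.34, adjusted p = 0.0481). The Dync2h1 difference under flow was 0.11 (adjusted p = 0.528) with unscaled TPM and lost its call without wild-type flow 1 or Dync2h1 knockout flow 1 or 3 (adjusted p from 0.0614 to 0.12). The Ift140 difference under flow lay at adjusted p = 0.0529 when only the 2 groups compared were fitted.

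Amotl1 (GRCm38, chromosome 9, 14541966 to 14645056, minus strand) went the other way in the Dync2h1 line. It measured 66.7, 60 and 63 TPM in wild type without flow and 74.8, 76.65 and 77 TPM under flow. Ift140 knockout libraries held 59.7, 60.8 and 66.4 TPM static and 77.45, 80 and 75.3 TPM under flow, levels that overlapped those of wild type in the same condition. The Dync2h1 knockout held 40.2, 43.6 and 44.95 TPM static and 48.25, 54.2 and 46.5 TPM under flow. All 6 of its libraries lay below all 12 others.

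Flow raised Amotl1 by 0.27 (SE 0.07, adjusted p = 0.0178) in wild type and by 0.31 (SE 0.07, adjusted p = 0.00807) in the Ift140 knockout, and the change of 0.20 (SE 0.07) in the Dync2h1 knockout did not pass (adjusted p = 0.0677) except without Ift140 knockout flow replicate 3 (adjusted p = 0.0439). Against wild type it was lower in the Dync2h1 knockout by -0.55 (SE 0.07, adjusted p = 4.8e-05) static and -0.61 (SE 0.07, adjusted p = 1.66e-05) under flow, while the Ift140 knockout differed by -0.02 (95% interval -0.18 to 0.13; above 0 with unscaled TPM) and 0.03 (95% interval -0.13 to 0.18). With unscaled TPM the wild-type rise lay at adjusted p = 0.116 and the Ift140 rise at adjusted p = 0.0765. The wild-type rise also lost its call without static wild type 2 or 3 or wild-type flow 2 or 3 (adjusted p from 0.0517 to 0.0805), and the Ift140 rise when only the 2 groups compared were fitted (adjusted p = 0.132).

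Position went with the low levels of Amotl1 in the Dync2h1 line, which was noticed after the values had been seen. Amotl1 lies 7.36 Mb from the targeted gene Dync2h1 on chromosome 9, and Yap1, the gene of YAP itself, lies 0.75 Mb from it. In the first 15 Mb of that chromosome 28 other genes were tested, and in the static Dync2h1 knockout their median change was -0.98, with 23 lower and 0 higher by the test. Under flow their median was -0.90, with 21 lower and 1 higher. In the static Ift140 knockout the same 28 genes had a median of -0.16, with none passing, and the 91 genes of the next 15 Mb had a median of -0.00 in the static Dync2h1 knockout. Amotl2, farther along the same chromosome, had 22 tested genes within 2.5 Mb, with a median of -0.01, and Axl on chromosome 7 had 82, with a median of 0.02. What part this stretch of chromosome has in the Amotl1 and Yap1 results was not tested.

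**Figure D4:**
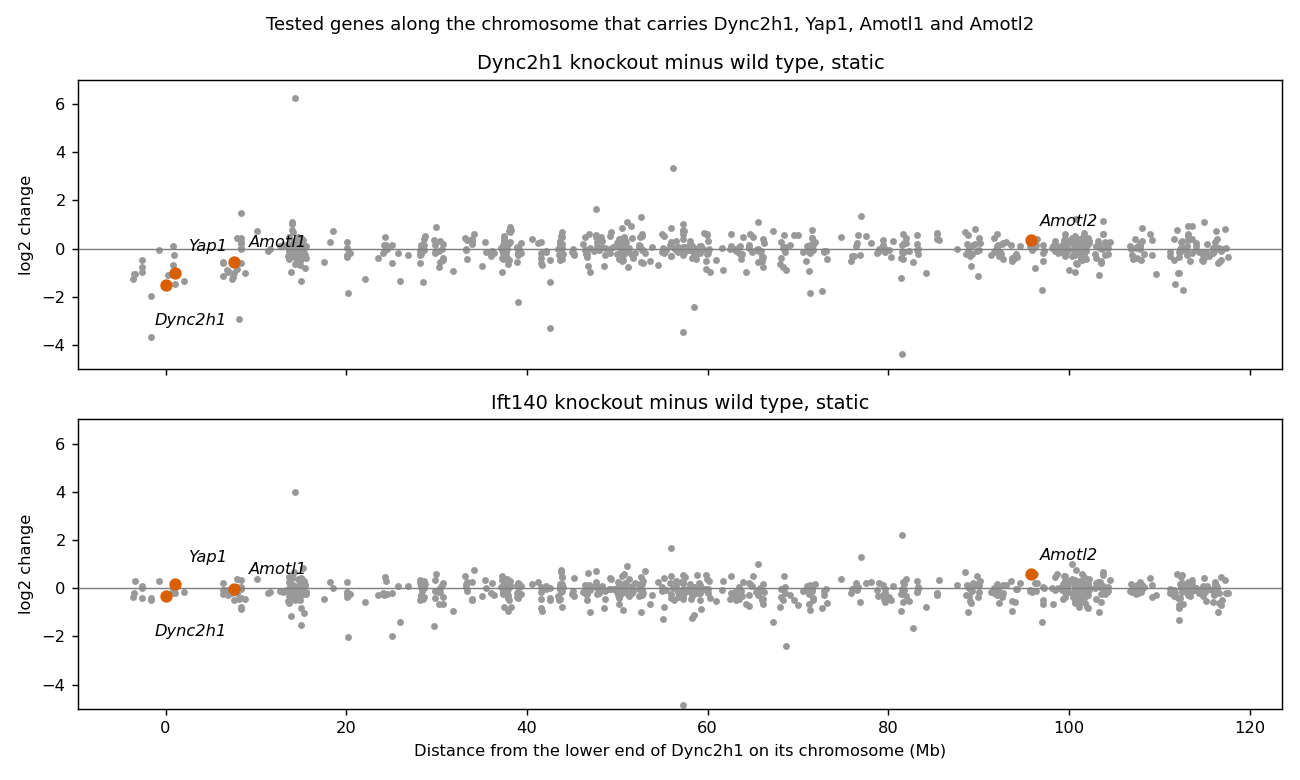
Log2 change against wild type in static culture for each tested gene with a matched position on the chromosome of Dync2h1, plotted by distance from its lower end, for the Dync2h1 knockout (top) and the Ift140 knockout (bottom). In the top panel the genes around Dync2h1, including Yap1 and Amotl1, lie mostly below 0 (median -0.98 over 28 others in the first 15 Mb), and in the bottom panel the same genes lie near 0 (median -0.16).

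Lats2 (GRCm38, chromosome 14, 57689662 to 57758388, minus strand) encodes the kinase that phosphorylates YAP. It measured 38.2, 33.4 and 35.4 TPM in wild type without flow and 43.5, 49.9 and 49.5 TPM under flow, a rise of 0.41 (SE 0.09, adjusted p = 0.00364). The Ift140 knockout held 44.8, 46.8 and 55.15 TPM static and 56.4, 55.4 and 62.8 TPM under flow, and the Dync2h1 knockout 47, 47.9 and 48.55 TPM static and 56.9, 53.3 and 57.5 TPM under flow. Static wild type lay below all 15 other libraries, and both static knockouts overlapped wild type under flow.

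In static culture Lats2 was 0.44 (SE 0.09, adjusted p = 0.00263) higher than wild type in the Ift140 knockout and 0.41 (SE 0.09, adjusted p = 0.00226) higher in the Dync2h1 knockout. Its flow changes in the knockouts, 0.25 (adjusted p = 0.0644) and 0.22 (adjusted p = 0.0969), did not pass although the groups did not overlap. Without static Ift140 knockout replicate 3 the Ift140 change was 0.34 (adjusted p = 0.0183). With only the 2 groups in the fit the Dync2h1 change passed (adjusted p = 0.0319), and with unscaled TPM it was 0.09 (adjusted p = 0.731). Under flow the Ift140 knockout was higher by 0.28 (SE 0.09, adjusted p = 0.04075), a call lost without any 1 of 11 libraries (static wild type 3, all wild-type flow, Ift140 knockout flow 1 and 3, all static Dync2h1 knockout, Dync2h1 knockout flow 1 and 3), at values from 0.22 to 0.32 and adjusted p from 0.0511 to 0.159. It was 0.23 (adjusted p = 0.111) without Ift140 knockout flow replicate 3, and it did not pass with unscaled TPM, without the filter or in the fit of 2 groups (adjusted p = 0.111, 0.0535 and 0.220). The Dync2h1 difference under flow, 0.23 (adjusted p = 0.06165), passed without static Ift140 knockout 3 or Ift140 knockout flow 3 (adjusted p = 0.0367 and 0.0383). With unscaled TPM that difference was 0.08 (adjusted p = 0.711).

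Ajuba (GRCm38, chromosome 14, 54567472 to 54577558, minus strand) encodes a LIM domain protein of cell junctions that binds LATS kinases and restrains them. In wild type it stood at 65.3, 66.8 and 60.2 TPM static and at 66.3, 79.3 and 73 TPM under flow, which overlapped (change 0.18, adjusted p = 0.141). Ift140 knockout libraries held 68.65, 70.7 and 69.2 TPM static and 81.2, 96.6 and 88.8 TPM under flow, a rise of 0.35 (SE 0.08, adjusted p = 0.00811) between groups that did not overlap. Dync2h1 knockout libraries held 71, 78.4 and 73.25 TPM static and 75.5, 69.75 and 77.1 TPM under flow, a change of -0.0019 (95% interval -0.17 to 0.17). In static culture the knockout libraries lay above all wild-type ones, but the differences, 0.12 (adjusted p = 0.368) and 0.21 (adjusted p = 0.0712), did not pass.

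Under flow Ajuba was 0.28 (SE 0.08, adjusted p = 0.0299) higher in the Ift140 knockout than in wild type, a call lost without wild-type flow 1 or 3 or Ift140 knockout flow 2 (adjusted p from 0.0715 to 0.13). The Ift140 flow response differed from that of wild type by 0.17 (95% interval -0.08 to 0.41, adjusted p = 0.826), so the passing call in one line and not in the other is no shown difference. Both Ift140 calls of Ajuba were lost when only the 2 groups compared were fitted (adjusted p = 0.125 and 0.245).

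Tead1 (GRCm38, chromosome 7, 112679318 to 112906807, plus strand) encodes one of the TEAD factors through which YAP acts, and it passed in no comparison. Wild type held 28.4, 30.4 and 24.15 TPM static and 29.6, 31 and 24.3 TPM under flow. The Dync2h1 knockout held 30.1, 30.2 and 30.5 TPM static and 23.2, 29.7 and 23.3 TPM under flow. The Ift140 knockout held 30.1, 49 and 29.65 TPM static and 38.4, 30.5 and 82.1 TPM under flow, so 1 library in each of its groups stood high. Of the 15 pairs of groups 11 overlapped. The Ift140 difference under flow, 0.69 (95% interval 0.12 to 1.26, adjusted p = 0.1015), was 0.27 (adjusted p = 0.393) without flow replicate 3 and passed without flow replicate 2 (0.97, adjusted p = 0.0189). The static Ift140 difference, 0.35 (adjusted p = 0.422), was 0.11 (adjusted p = 0.836) without static replicate 2.

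Under flow the wild-type and knockout levels were compared again. In the Ift140 knockout 4 were higher (Cyr61, Amotl2, Lats2 and Ajuba) and none lower, where 6.02% of all tested genes rose and 7.97% fell. Without Ift140 knockout flow replicate 3 Cyr61 (0.47), Amotl2 (0.60) and Ajuba (0.28) passed and Lats2 did not, and without wild-type flow replicate 1 or 3 only 1 of the 9 passed, without wild-type flow 2, Ift140 knockout flow 1, static Dync2h1 knockout 3 or Dync2h1 knockout flow 3 only 2. In the Dync2h1 knockout 2 were higher (Ctgf and Amotl2) and 2 lower (Amotl1 and Axl), where 16% rose and 13.2% fell. The medians of the 9 were 0.28 and 0.05, against -0.02 and 0.03 over all genes. Unscaled TPM moved the median of all genes in the Dync2h1 comparison by -0.13 and the share of passing genes that were higher from 54.8% to 34.3%, and Cyr61, Ankrd1 and Ajuba, which did not pass, went to values below 0. For the difference of responses in that line the share went from 37.5% to 20.6%, with Ctgf at -1.63 (adjusted p = 0.0003503). When only the wild-type and Ift140 flow libraries were fitted, none of the 4 passed, and 3 of the 9 (Amotl2, Lats2 and Ajuba) lay at an unadjusted p under 0.05 in limma.

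Yap1 and Wwtr1 encode the effectors YAP and TAZ. Yap1 stood at 43.4 ± 3.62 TPM (SD, n = 3) in static wild type and 49.6 ± 2.65 under flow, a change of 0.19 that did not pass (adjusted p = 0.149), and rose by 0.31 (adjusted p = 0.0216) in the Ift140 knockout. Against wild type Yap1 in the Ift140 knockout differed by 0.17 in static culture and by 0.30 under flow (61.1 against 49.6 TPM by mean). In the Dync2h1 knockout it stood at 21.2 ± 2.17 TPM static and 24.6 ± 1.14 under flow, lower than wild type by -1.0001 (SE 0.09, adjusted p = 5.94e-07) and -0.98 (SE 0.09, adjusted p = 6.78e-07). The line with the highest Ctgf level thus had the lowest Yap1 level, with all its 6 libraries below all 12 others (at most 25.9 TPM against at least 39.2 TPM). Wwtr1 rose with flow by 0.33 (SE 0.06, adjusted p = 0.00127) in wild type, from 82.65 ± 1.2 to 104 ± 5.4 TPM, and stood at 82.3 ± 1.63 TPM in the static Dync2h1 knockout, where it differed from wild type by -0.01 (95% interval -0.14 to 0.12). Under flow it was lower there than in wild type, 90.2 against 104 TPM by mean (-0.21, SE 0.06, adjusted p = 0.0181).

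**Figure D5:**
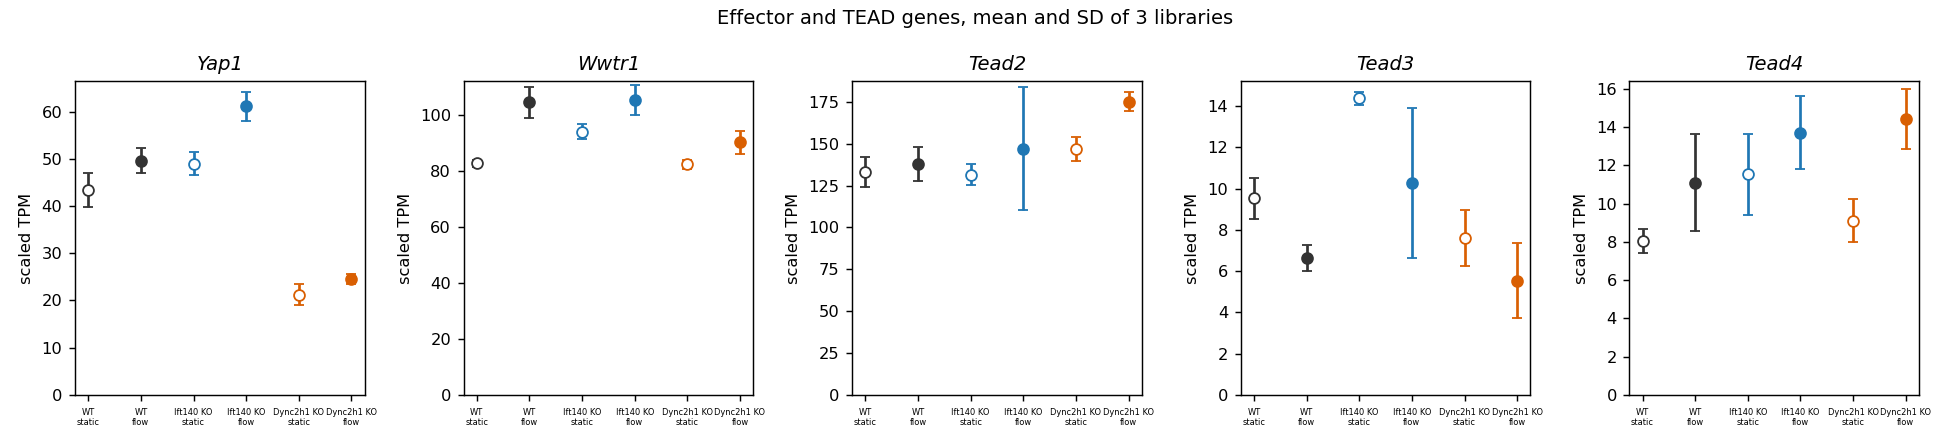
Mean and SD of 3 libraries (scaled TPM) for Yap1, Wwtr1, Tead2, Tead3 and Tead4 in the 6 groups, open circles static and filled circles flow. Yap1 in the Dync2h1 knockout, 21.2 TPM static and 24.6 under flow, lies below all other groups (43.4 to 61.1 TPM), and Wwtr1 lies between 82.3 and 105 TPM in all groups.

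Among the TEAD genes Tead2 was the most abundant, at 131.5 to 175 TPM by group mean, against 25.4 to 50.4 for Tead1, 8.045 to 14.4 for Tead4 and 5.54 to 14.4 for Tead3. With all libraries Tead4 alone passed for flow, by 0.61 (SE 0.16, adjusted p = 0.0161) in the Dync2h1 knockout; neither Tead2 nor Tead3 passed in any comparison with all libraries. When Ift140 knockout flow replicate 3 was left out both passed for flow in the Ift140 knockout, Tead2 at 0.35 (adjusted p = 0.00462) and Tead3 at -0.73 (adjusted p = 0.0278), and Tead2 for flow in the Dync2h1 knockout (0.25, adjusted p = 0.0125). Tead2 then also passed as higher than wild type under flow in the Ift140 knockout (0.29, adjusted p = 0.0182). In the Dync2h1 knockout under flow Tead2 passed as higher as well (0.35, adjusted p = 0.000952). Tead3 (0.55, adjusted p = 0.0487) and Wwtr1 (0.18, adjusted p = 0.0287) then passed as higher in the static Ift140 knockout. The 730 tested genes of chromosome 17, which holds Tead3 and Ift140, had a median of 0.30 in that comparison with all libraries. What part the chromosome has in the Tead3 value was not tested. Vgll4, whose product competes with YAP for TEAD, fell with flow by 0.51 in wild type (34.85 ± 0.67 to 24.2 ± 2.17 TPM, adjusted p = 0.0019), by 0.62 in the Ift140 knockout (adjusted p = 0.000504) and by 0.49 in the Dync2h1 knockout (adjusted p = 0.00283). It was also lower in the static Dync2h1 knockout, by -0.62 (adjusted p = 0.000269). Vgll1 was under the filter, and of the 7 effector and cofactor genes measured 1 rose and 1 fell with flow in each genotype, where 9.91% and 9.46%, 8.06% and 8.12%, and 10.8% and 7.38% of all tested genes did.

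Hippo kinases, scaffolds and upstream regulators were 24 by name, of which 22 were tested. With flow 6 rose in wild type, 8 in the Ift140 knockout and 6 in the Dync2h1 knockout, and none fell by the test, where 9.91%, 8.06% and 10.8% of all tested genes rose and 9.46%, 8.12% and 7.38% fell. The counts without Ift140 knockout flow replicate 3 were 8 risen and 2 fallen in wild type (Taok2 -0.34 and Ptpn14 -0.28), 7 and 0 in the Ift140 knockout, where Taok3 lost its call (0.68 with, 0.44 without), and 8 and 1 in the Dync2h1 knockout (Ptpn14 -0.21). Medians with all libraries were 0.13, 0.19 and 0.15, where the medians of all genes lay between -0.01 and 0.03. Rassf1, whose product binds the MST kinases, rose by 0.81 (SE 0.08, adjusted p = 3.23e-06) in wild type, 0.66 (adjusted p = 3.65e-05) in the Ift140 knockout and 0.81 (adjusted p = 3.73e-06) in the Dync2h1 knockout. Frmd6, a FERM domain scaffold, rose by 0.72 (adjusted p = 0.000874) in wild type, from 36.4 ± 7.36 to 59.6 ± 1.75 TPM, and by 0.76 (adjusted p = 0.000729) and 0.45 (adjusted p = 0.021) in the Ift140 and Dync2h1 knockouts. Limd1, a relative of Ajuba, rose by 0.50 (adjusted p = 0.00168) in wild type and 0.61 (adjusted p = 0.000488) in the Ift140 knockout. The kinase gene Map4k4 rose in all 3 genotypes, by 0.35 (adjusted p = 0.00122), 0.20 (adjusted p = 0.0415) and 0.42 (adjusted p = 0.000261).

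The same 22 regulators were compared between lines in static culture. In the Ift140 knockout 2 were higher and 2 lower, where 7.76% of all tested genes rose and 8.68% fell, with Wwc1, the gene of the KIBRA scaffold, at 0.63 (SE 0.12, adjusted p = 0.00199) and Sav1, the MST adaptor, at 0.46 (adjusted p = 0.00189). In the static Dync2h1 knockout 3 were higher and 6 lower, where 13.1% rose and 13.1% fell, with Map4k4 at -0.59 (adjusted p = 5.84e-06) and the phosphatase gene Ptpn14 at -1.11 (SE 0.12, adjusted p = 6.92e-06). With Ift140 knockout flow replicate 3 left out the counts were 4 higher and 3 lower, and 5 higher and 7 lower. Map4k4 and Ptpn14 both lie on chromosome 1, whose 923 tested genes had a median change of -0.33 in that comparison, against 0.00 over all genes; its part in these values was not tested.

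Other widely used YAP and TAZ targets, 15 by name and 13 tested, are a list of genes outside the 9. In wild type 5 rose with flow and 1 fell (median 0.21), in the Ift140 knockout 2 rose and 1 fell (median 0.17) and in the Dync2h1 knockout 2 rose and 2 fell (median 0.12). Of all tested genes 9.91% rose and 9.46% fell, 8.06% rose and 8.12% fell, and 10.8% rose and 7.38% fell in these comparisons. Leaving out Ift140 knockout flow replicate 3, the Ift140 count was 2 risen and 2 fallen, and the other counts were the same. Gadd45a, a stress-induced growth arrest gene, had the smallest p: it rose from 29.1 ± 2.35 to 82.2 ± 4.8 TPM in wild type (1.47, SE 0.14, adjusted p = 3.12e-06), by 0.93 (adjusted p = 0.000343) in the Ift140 knockout and by 0.86 (adjusted p = 0.000541) in the Dync2h1 knockout. F3, the gene of tissue factor, rose by 0.47 (adjusted p = 0.00137) in wild type. Crim1, a membrane protein that binds BMPs, rose by 0.42 (adjusted p = 0.00181) in wild type, 0.32 (adjusted p = 0.0143) in the Ift140 knockout and 0.41 (adjusted p = 0.002715) in the Dync2h1 knockout.

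In static culture 7.76% of all tested genes were higher and 8.68% lower in the Ift140 knockout, and 13.1% and 13.1% in the Dync2h1 knockout. Of the 13 targets the Ift140 knockout had 1 higher, Crim1 at 1.19 (SE 0.08, adjusted p = 1.13e-07), and 2 lower, among them the membrane repair gene Myof at -0.57 (adjusted p = 0.00149). Crim1 lies on chromosome 17, as Ift140 does, and the 730 tested genes there had a median of 0.30 in this comparison, against -0.02 over all genes; the part of the chromosome was not tested. In the Dync2h1 knockout 4 were higher, with F3 at 0.72 (SE 0.09, adjusted p = 2.16e-05), and 4 lower, with Nt5e, the gene of an ectonucleotidase, at -1.20 (adjusted p = 0.0002215) from 3.17 TPM in wild type. The counts without Ift140 knockout flow replicate 3 were 3 higher and 2 lower in the Ift140 knockout, and 4 higher and 6 lower in the Dync2h1 knockout. Medians of the 13 were 0.10 and -0.29 in these static comparisons, against -0.02 and 0.00 over all genes. Under flow 1 was higher and 2 lower in the Ift140 knockout (median -0.13), where 6.02% of all tested genes rose and 7.97% fell. In the Dync2h1 knockout under flow 1 was higher and 8 lower (median -0.34), where 16% rose and 13.2% fell. Without Ift140 knockout flow replicate 3 the counts under flow were 1 higher and 2 lower, and 2 higher and 8 lower.

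The other CCN family genes were far less abundant than Ctgf and Cyr61. Wisp1 (Ccn4) stood at 20.5 ± 1.1 TPM in static wild type and 27.7 ± 2.69 under flow, a rise of 0.41 (adjusted p = 0.0389), and at 28.9 ± 2.21 TPM in the static Ift140 knockout, 0.48 above wild type (adjusted p = 0.022). In the Dync2h1 knockout it stood at 5.79 ± 0.54 TPM static and 5.185 ± 1.4 under flow, against wild type -1.66 (SE 0.13, adjusted p = 2.35e-07) and -2.23 (SE 0.13, adjusted p = 7.42e-09). Wisp2 (Ccn5) reached at most 3.19 TPM in any library and was lower in the static Dync2h1 knockout by -1.43 (adjusted p = 1.81e-05). Nov (Ccn3) and Wisp3 (Ccn6) did not pass the filter. Of the 2 tested, 1 fell by the test with flow in the Ift140 knockout, where 8.12% of all tested genes fell. There Wisp2 went from 2.74 ± 0.36 TPM static to 1.45 ± 0.45 under flow, and Wisp1 from 28.9 ± 2.21 to 27.9 ± 1.82. Within 1 gene family, then, Ctgf and Cyr61 were higher and Wisp1 and Wisp2 lower in the static Dync2h1 knockout than in wild type.

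The genes whose pattern lay closest to that of Ctgf were found by the root mean square distance over the 18 libraries, after centring each gene on its mean, among 9875 genes of at least 5 TPM on average. They were Dusp6 (distance 0.31), Sema7a (0.40), Trib3 (0.40), F2rl1 (0.43) and Hmga2 (0.45), against a median distance of 1.12. Dusp6, an ERK phosphatase, stood at 23.65 and 194 TPM by mean in static and flow wild type, 63 and 223 in the Ift140 knockout and 80 and 176 in the Dync2h1 knockout. For Cyr61 they were Fhl2 (0.16), Sipa1l2 (0.20), Tgif1 (0.21), Wdr43 (0.24) and Socs2 (0.24), against a median of 0.70. Fhl2, a LIM domain co-factor, stood at 113 and 299 TPM in wild type, 197 and 340 in the Ift140 knockout and 172 and 293 in the Dync2h1 knockout. The distance between Ctgf and Cyr61 was 0.54, larger than that from Ctgf to any of its 5, and the closest pair of the 9 was Amotl1 and Axl at 0.15, followed by Lats2 and Ajuba at 0.16. These distances describe the 18 libraries, which share the same groups, and are given with no test. The values were centred but not divided by each gene's spread, so genes that change little lie close together even where their patterns differ.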

How the data were processed

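The authors deposited 1 table per library with a signal value for each gene name; the values have the same total in every library, as TPM (transcripts per 1000000) do, and keep no sequencing depth, so the counting precision is unknown. Per the submitters' processing notes, FastQC 0.11.5, Bowtie2 2.1.0 and RSEM 1.2.31 were used with mm10 and GRCm38.p5; the annotation is not given in the sources used here. A row holding the library total was left out.

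From these values TPM were scaled by an unweighted trimmed mean of log ratios (30% of ratios, 5% of abundances trimmed). Genes with at least 1 deposited TPM in at least 3 libraries were fitted as log2(scaled TPM + 1) in limma 3.58.1 (R 4.3.3), with 6 group means, 18 libraries, 12 residual degrees of freedom and a trend of variance with level. The threshold was a Benjamini-Hochberg adjusted p under 0.05 over all 16718 genes in each of 9 comparisons. Folds of genes near 0 are understated on this scale. With 3 libraries in each group no exact test reaches below p = 0.1, and smaller values rest on the model. The fit was tested on simulated data.

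The 9 genes, the 4 lists and the tests were chosen with earlier results of these data known. Named besides the 9 are, per list and comparison, up to 2 passing genes by smallest p, the effector, TEAD and CCN genes, and the 5 genes nearest to Ctgf and to Cyr61. Tissue markers were read as summed TPM. Positions come from GENCODE vM21 (GRCm38), matched for 14965 of the tested names (89.5%), and promoters from RefSeq. Alternatives were unscaled TPM, no filter, a pseudocount of 0.1, only the groups compared, a replicate block, leaving out each library and, chosen after seeing the data, scaled TPM without a logarithm.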

Additional observations from a re-analysis of the deposited data

Results flagged for a closer look

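The flow responses of Ctgf and Cyr61 differed between genotypes by a direct test of the difference (limma, Benjamini-Hochberg over 16718 genes). For Ctgf the response on the log2 scale was -1.33 relative to wild type in the Ift140 knockout and -1.50 in the Dync2h1 knockout, where 3 of 3 flow libraries lay above all static libraries in each genotype. For Cyr61 the differences were -0.88 and -0.74. These 2 calls were close to the threshold and were lost without any 1 of 9 and any 1 of 16 of the 18 libraries. Leaving out a library removed neither call of Ctgf. All 4 calls were lost without a logarithm, where the gains of Ctgf were 434, 380.5 and 430.5 TPM in wild type, the Ift140 knockout and the Dync2h1 knockout.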

How the results depend on the processing

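No value of the 9 genes that passed changed its sign under any setting. Of the 81 values of the 9 genes, between 69 and 80 kept their side of the threshold in each other setting. Fitting only the groups compared gave 1 of the 9 passing for flow in the Ift140 knockout (4 in the full fit) and 503 of all genes (2704), 5 for flow in the Dync2h1 knockout (2), 0 for the Ift140 knockout against wild type under flow (4; 3 at an unadjusted p under 0.05) and 488 of all genes (2339), 1 of 2 and 5 of 33 genes for the Ift140 difference of responses, and 153 of all genes (64) for the Dync2h1 difference. Without the filter 2 of the 9 passed for the Ift140 knockout under flow, 55 genes in all for the Ift140 difference and 1 of the 9 for the Dync2h1 difference. A pseudocount of 0.1 left 1 of the 9 for the Dync2h1 difference, and unscaled TPM left 19 genes in all for the Ift140 difference. Without a logarithm 0 of the 9 passed for either difference, with 87 and 215 genes in all, and 0 of the 9 lay at an unadjusted p under 0.05. These counts are from limma.

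Leaving out each library in turn gave 4 to 6 of the 9 genes passing for flow in wild type, 4 to 5 in the Ift140 knockout and 2 to 5 in the Dync2h1 knockout, 5 for the static Ift140 knockout, 6 to 7 for the static Dync2h1 knockout, 1 to 4 and 3 to 5 for the knockouts under flow, and 1 to 2 for each difference of responses. The count of 5 in the Dync2h1 knockout came without Ift140 knockout flow 3, and the count of 1 in the Ift140 knockout under flow without wild-type flow 1 or 3. Over all genes the counts were 2317 to 4108, 2022 to 2883 and 2094 to 4033 for flow, 1866 to 3862 and 3342 to 5403 for the static knockouts, 1684 to 2993 and 3674 to 5936 for the knockouts under flow, and 11 (without static Ift140 knockout 1) to 68 (without Ift140 knockout flow 3) and 28 (without static Dync2h1 knockout 3) to 151 (without Ift140 knockout flow 3) for the differences of responses.

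The replicate numbers are shared between groups, but the correlations of same-numbered deviations lay between -0.18 and 0.11 over 21 pairs, with 1 over 0.1, so they were not taken to pair the libraries. With a replicate block 1 of the 9 genes passed for each difference of responses, with 13 and 42 genes in all; Cyr61 lost its call in both (adjusted p = 0.062 and 0.086) and in the Ift140 knockout under flow (adjusted p = 0.0556), and the block changed no other call of the 9. TPM keep no depth, so counting error cannot be given.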
